A study of Mus musculus with 12 samples.

Results

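The liver response to ethanol feeding was examined in mice labelled as liver-specific knockouts of Sirt6. The comparison took 6 of the 12 libraries of the series, 3 from ethanol-fed and 3 from pair-fed mice of that label, and it covered all 13097 genes of the count table. Every library came from an individual female C57BL/6 mouse aged 3 months. The ethanol-fed mice were kept for 10 days on Lieber-DeCarli liquid food holding 5% ethanol, followed by 1 binge of ethanol at 5 g/kg, whereas the pair-fed mice had received an isocaloric control diet and a binge of maltose dextrin. The diet and the binge were given to the same mice, so their effects cannot be told apart. Wild type mice of the same strain, sex and age, 3 ethanol-fed and 3 pair-fed, served as the comparison for the response. Sirt6 encodes an NAD-dependent deacylase bound to chromatin. Neither the Cre driver nor the deleted exons is given in the sources used here.

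The Sirt6 transcript did not go with the label. It stood at 2.71, 3.17 and 3.87 CPM (reads of the gene scaled to library size, with TMM) in ethanol-fed and at 3.02, 2.58 and 2.71 CPM in pair-fed mice labelled knockout, against 3.47, 3.08 and 3.08 CPM in ethanol-fed and 2.91, 2.86 and 3.97 CPM in pair-fed wild type mice. The log2 difference of labelled knockout over wild type was -0.11 ± 0.15 (SE, adjusted p = 0.77). Counts were per gene and not per exon, so the loss of a few exons could pass unseen. The mice are therefore called labelled knockout throughout, and each comparison with wild type rests on that label.

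The liver clears most ingested ethanol, through alcohol dehydrogenase, the microsomal P450 Cyp2e1 and catalase, and the acetaldehyde formed is oxidised in mitochondria. Amino acid shortage, haem shortage and stress of the endoplasmic reticulum (ER) all reach the translation factor eIF2, whose phosphorylation lets the transcription factor ATF4 be translated. ATF4, with its partners of the C/EBP family, induces amino acid synthesis, amino acid uptake and tRNA charging, and chronic activity brings in CHOP, the product of Ddit3. Unfolded proteins in the ER also act through ATF6 and XBP1, which induce chaperones.

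In mice labelled knockout, 3222 of 13097 genes passed an adjusted p of 0.05 in edgeR's quasi-likelihood test (Benjamini-Hochberg over all genes). Of all genes tested, 13.7% were called higher and 10.9% lower in ethanol-fed mice, and these shares are the background against which the gene lists below are read. A change of at least 2-fold was reached by 750 of the higher and 527 of the lower calls. Feeding separated the 6 libraries on the first principal component, which held 61.4% of the variance, and the second (15%) set ethanol-fed mouse 3 apart from ethanol-fed mice 1 and 2. Total counts were 17305141 to 17420683 in ethanol-fed and 17940776 to 18279809 in pair-fed mice. Albumin took 6.10%, 8.82% and 9.55% of the counts in ethanol-fed mice, against 11%, 12.1% and 12.7% in pair-fed mice. Without TMM, on total counts, all genes had a median log2 fold change of 0.14 instead of 0.04, and higher genes made up 69.9% of the calls in place of 55.7%. Log2 fold changes below are ethanol-fed over pair-fed in mice labelled knockout, with their standard error and n = 3 mice per group, and single-mouse values are TMM-normalised CPM in the order of mouse 1, 2 and 3.

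The genes with the largest rises included several that pair-fed livers barely transcribed. Mab21l3 had 102 reads over the 3 ethanol-fed libraries and 0 over the 3 pair-fed libraries, which makes it at least 35.4-fold higher against a floor of 3 reads over the group. Ypel4 had 142 and 2 reads in ethanol-fed and pair-fed mice, a ratio of 73.8 with an exact 95% counting interval of 20.1 to 616. Fam83f had 197 and 3 reads, a ratio of 68.3 with an interval of 23.0 to 334. These intervals cover counting error only. The mice differed in size of response here, since Fam83f stood at 7.4, 0.547 and 2.62 CPM in the 3 ethanol-fed mice. Slc34a2, a sodium-phosphate cotransporter, was at 20.3, 2.30 and 2.56 CPM in ethanol-fed mice and at most 0.174 CPM in any pair-fed mouse. Gjc3, a gap junction connexin, reached 10.5, 4.92 and 6.74 CPM in ethanol-fed mice, against 0.291, 0.225 and 0.462 CPM in pair-fed mice (log2 fold change 4.48 ± 0.72, adjusted p = 0.0015). Dhrs9, a retinol and steroid dehydrogenase, reached 4.75, 12.2 and 7.11 CPM, against 0.291, 0.337 and 0.520 CPM (4.37 ± 0.64, adjusted p = 0.00084). The rule for the largest rises and falls took only genes whose groups did not overlap, so the gap in these genes is not a separate result. Over all 13097 genes, 3074 had the 3 ethanol-fed values above the pair-fed range and 2675 had them below it. Bmp8b, a bone morphogenetic protein, and Ttll11, a tubulin glutamylase, also belonged to this set, but both lost their call in some recalculations, Bmp8b in 5 and Ttll11 in 9 of 21.

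Among the largest falls, A1bg, a plasma glycoprotein that is female-biased in mouse liver, stood at 1.58, 1.04 and 0.811 CPM in ethanol-fed mice, against 16.7, 29.4 and 29.1 CPM in pair-fed mice (log2 fold change -4.43 ± 0.75, adjusted p = 0.0022). Nxpe2 was the tightest of the large falls, with 7.35, 7.77 and 7.11 CPM in ethanol-fed mice and 60.6, 64.0 and 52.6 CPM in pair-fed mice (-2.99 ± 0.29, adjusted p = 8.6e-05). The groups stayed far apart in both genes, as the rule for the falls took only genes without overlap. Pdxp, which dephosphorylates vitamin B6, fell to 0.204, 0.383 and 0.312 CPM in ethanol-fed mice, against 2.62, 4.27 and 2.89 CPM in pair-fed mice. Sema5b, a semaphorin, fell to 2.20, 1.53 and 2.12 CPM, against 18.4, 11.1 and 10.7 CPM, and Lrp2bp fell to 1.07, 0.711 and 0.686 CPM, against 5.46, 5.28 and 5.72 CPM. Ankrd37, Gbp10, Fam107a and the pseudogene Serpina4-ps1 were named by the same rule, with log2 fold changes of -2.91 to -3.37.

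**Figure D1:**
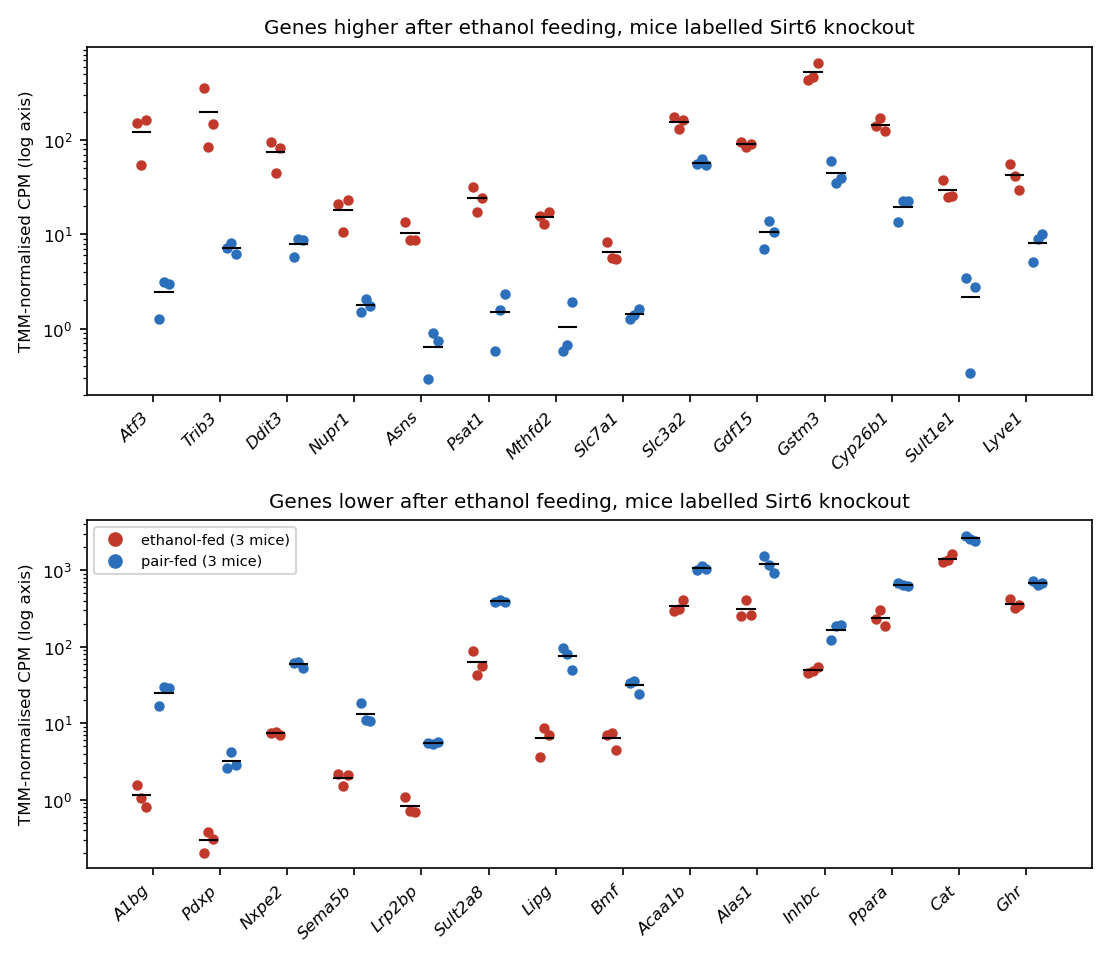
Level of 14 genes higher and 14 genes lower after ethanol feeding in mice labelled knockout, in TMM-normalised CPM on log axes; each point is 1 mouse (ethanol-fed left, pair-fed right) and each bar the mean of 3 mice. The 28 genes were chosen with their values known. In each the 3 ethanol-fed values lie outside the range of the 3 pair-fed values, for example 10.7 to 23.4 CPM against 1.51 to 2.08 CPM for Nupr1. Over all 13097 genes, 3074 lie above and 2675 below that range.

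Genes downstream of ATF4 were raised together. Of 18 tested stress factors and targets of ATF4 and CHOP, 12 were called higher and 0 lower, with a median log2 fold change of 1.49 against 0.04 over all genes. The number called ranged from 10 to 14 over the 21 recalculations. Each ethanol-fed mouse held 15 of the 18 genes above the highest pair-fed value, whereas of all genes mice 1, 2 and 3 held 40.6%, 41.8% and 41.2% above it and 37.4%, 36.1% and 38.2% below the lowest pair-fed value. Ddit3 reached 94.7, 45 and 81.7 CPM in ethanol-fed mice, against 5.76, 8.99 and 8.78 CPM in pair-fed mice (log2 fold change 3.23 ± 0.54, adjusted p = 0.0019). Nupr1, a small stress-induced chromatin protein, reached 20.8, 10.7 and 23.4 CPM, against 1.51, 2.08 and 1.73 CPM (3.36 ± 0.38, adjusted p = 0.00023). Gdf15, a stress-induced hormone of the TGF-beta family, reached 95.8, 85 and 91.6 CPM, against 6.92, 13.9 and 10.6 CPM (3.11 ± 0.40, adjusted p = 0.00052). The groups did not overlap in any of the 3 genes, where over all 13097 genes 3074 lay above the pair-fed range. Atf5, a liver-enriched factor whose translation also responds to eIF2 phosphorylation, was already abundant and reached 1168, 1234 and 1252 CPM in ethanol-fed mice, against 360, 336 and 358 CPM in pair-fed mice. Fgf21, the fasting hormone of the liver, reached 13.2, 70.7 and 81.4 CPM in ethanol-fed mice, against 0.930, 4.16 and 5.14 CPM in pair-fed mice, so mouse 1 responded least (4.01 ± 0.79, adjusted p = 0.0049).

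The promoters of these genes are shown because several carry the letters of the composite element that C/EBP and ATF factors bind. The letters TTGCATCA, searched on both strands in RefSeq windows of 300 bases on GRCm38.p6 (250 before to 50 after each start), were present in 29.4% of the 17 ATF4 and CHOP list genes with a window and in 33.3% of the 12 cytosolic tRNA synthetases with a window. They were present in 0.778% of the 10021 tested genes with a window and in 0.895% of all 32851 windows. The 2 list shares rest on 5 and 4 genes. They follow from membership of lists of known genes and are not a result of the ethanol comparison. Among genes called at least 2-fold higher the share was 1.85%, and among those called at least 2-fold lower it was 1.79%. The motif does not contain any of the other motifs searched. Capitals mark the match, read 5′ to 3′ on the gene's strand, in Atf3 (chr1:191183284-191183583, minus strand), Nupr1 (chr7:126625421-126625720, minus), Fgf21 (chr7:45615441-45615740, minus), the alanyl-tRNA synthetase Aars (chr8:111033592-111033891, plus) and the isoleucyl-tRNA synthetase Iars (chr13:49681880-49682179, plus).
Atf3: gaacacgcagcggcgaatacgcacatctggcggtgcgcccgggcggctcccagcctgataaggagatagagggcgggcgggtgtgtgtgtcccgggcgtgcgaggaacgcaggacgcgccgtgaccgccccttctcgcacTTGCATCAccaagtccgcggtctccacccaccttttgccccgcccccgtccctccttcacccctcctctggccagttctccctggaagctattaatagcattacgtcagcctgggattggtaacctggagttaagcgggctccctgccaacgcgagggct
Nupr1: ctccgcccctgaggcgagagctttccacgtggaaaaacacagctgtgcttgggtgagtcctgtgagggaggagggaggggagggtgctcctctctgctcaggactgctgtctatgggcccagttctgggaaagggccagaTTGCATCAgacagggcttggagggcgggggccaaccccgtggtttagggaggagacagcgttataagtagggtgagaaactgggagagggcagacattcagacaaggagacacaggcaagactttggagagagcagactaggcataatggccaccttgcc
Fgf21: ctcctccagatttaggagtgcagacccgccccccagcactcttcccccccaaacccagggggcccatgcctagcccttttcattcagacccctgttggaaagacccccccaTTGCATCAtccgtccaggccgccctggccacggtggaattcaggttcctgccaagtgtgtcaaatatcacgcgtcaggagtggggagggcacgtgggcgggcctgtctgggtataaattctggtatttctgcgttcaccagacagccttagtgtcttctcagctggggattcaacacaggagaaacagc
Aars: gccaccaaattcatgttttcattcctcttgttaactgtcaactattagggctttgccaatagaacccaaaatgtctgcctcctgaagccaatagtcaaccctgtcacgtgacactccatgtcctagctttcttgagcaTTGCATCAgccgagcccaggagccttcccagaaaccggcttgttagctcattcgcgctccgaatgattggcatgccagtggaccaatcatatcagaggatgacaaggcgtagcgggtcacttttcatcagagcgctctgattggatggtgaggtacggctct
Iars: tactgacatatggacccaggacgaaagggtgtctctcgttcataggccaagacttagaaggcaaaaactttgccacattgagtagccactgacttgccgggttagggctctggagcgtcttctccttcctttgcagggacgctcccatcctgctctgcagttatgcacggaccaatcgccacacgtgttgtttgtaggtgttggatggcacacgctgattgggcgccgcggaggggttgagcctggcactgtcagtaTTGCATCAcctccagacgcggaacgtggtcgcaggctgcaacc
The match began 110 bases before the start in both Atf3 and Nupr1, 139 before it in Fgf21 and 112 before it in Aars, and it lay just after the start in Iars.

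Enzymes that charge tRNAs in the cytosol were raised together. Of 20 tested, 11 were called higher and 0 lower (median log2 fold change 0.55), and 9 to 12 were called over the recalculations. Lars, the leucyl-tRNA synthetase, reached 66.8, 46.8 and 73.7 CPM in ethanol-fed mice, against 22.8, 21.5 and 20.8 CPM in pair-fed mice (1.52 ± 0.21, adjusted p = 0.00055). Sars, the seryl enzyme, reached 134, 116 and 157 CPM, against 56.2, 65.9 and 63.2 CPM, and Eprs, which charges both glutamate and proline tRNAs, reached 264, 210 and 260 CPM, against 125, 123 and 119 CPM. In all 3 enzymes the lowest ethanol-fed mouse stood above the highest pair-fed mouse, as in 3074 of all 13097 genes. Aars, whose promoter is printed above, rose by 0.98 ± 0.19 and Iars by 1.23 ± 0.19. The 17 mitochondrial synthetases did not share this shift: 3 were called higher (Mars2, Pars2 and Ears2) and 2 lower, with a median of -0.13.

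Of 17 genes of serine, glycine and folate metabolism, 6 were called higher, 2 (Gcsh and Gcat) lower and 9 were not called. Psat1, a serine synthesis transaminase, reached 31.7, 17.1 and 24 CPM in ethanol-fed mice, against 0.581, 1.57 and 2.31 CPM in pair-fed mice (4.02 ± 0.51, adjusted p = 0.00052). Mthfd2, a mitochondrial folate dehydrogenase that adult liver normally holds low, reached 15.7, 13 and 17.4 CPM, against 0.581, 0.674 and 1.91 CPM (3.86 ± 0.40, adjusted p = 0.00013). Both genes were at least several-fold higher in each ethanol-fed mouse than in any pair-fed mouse. Aldh18a1, which starts proline and ornithine synthesis, reached 16.0, 7.99 and 8.61 CPM, against 1.16, 2.47 and 1.67 CPM (2.62 ± 0.38).

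Amino acid transporters moved in both directions, with 6 of 25 called higher and 4 lower. Slc3a2, the shared heavy chain of several amino acid exchangers, reached 176, 129 and 161 CPM in ethanol-fed mice, against 55.5, 62.6 and 54.5 CPM in pair-fed mice (1.43 ± 0.14, adjusted p = 6.4e-05). Slc7a1, a cationic amino acid transporter, reached 8.27, 5.58 and 5.49 CPM, against 1.28, 1.40 and 1.62 CPM (2.17 ± 0.43). The taurine transporter Slc6a6 fell to 87.8, 110 and 75.7 CPM, against 186, 200 and 146 CPM (-0.96 ± 0.16). The other 3 lower calls were the neutral transporters Slc38a1 and Slc38a2 and the aromatic transporter Slc16a10, at -1.20, -0.56 and -0.52, and they lost their calls in 1, 9 and 5 of 21 recalculations. The lower calls numbered 2 without pair-fed mouse 1, 2 or 3, without ethanol-fed mouse 3 or on total counts, and the higher calls numbered 3 without pair-fed mouse 3.

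**Figure D2:**
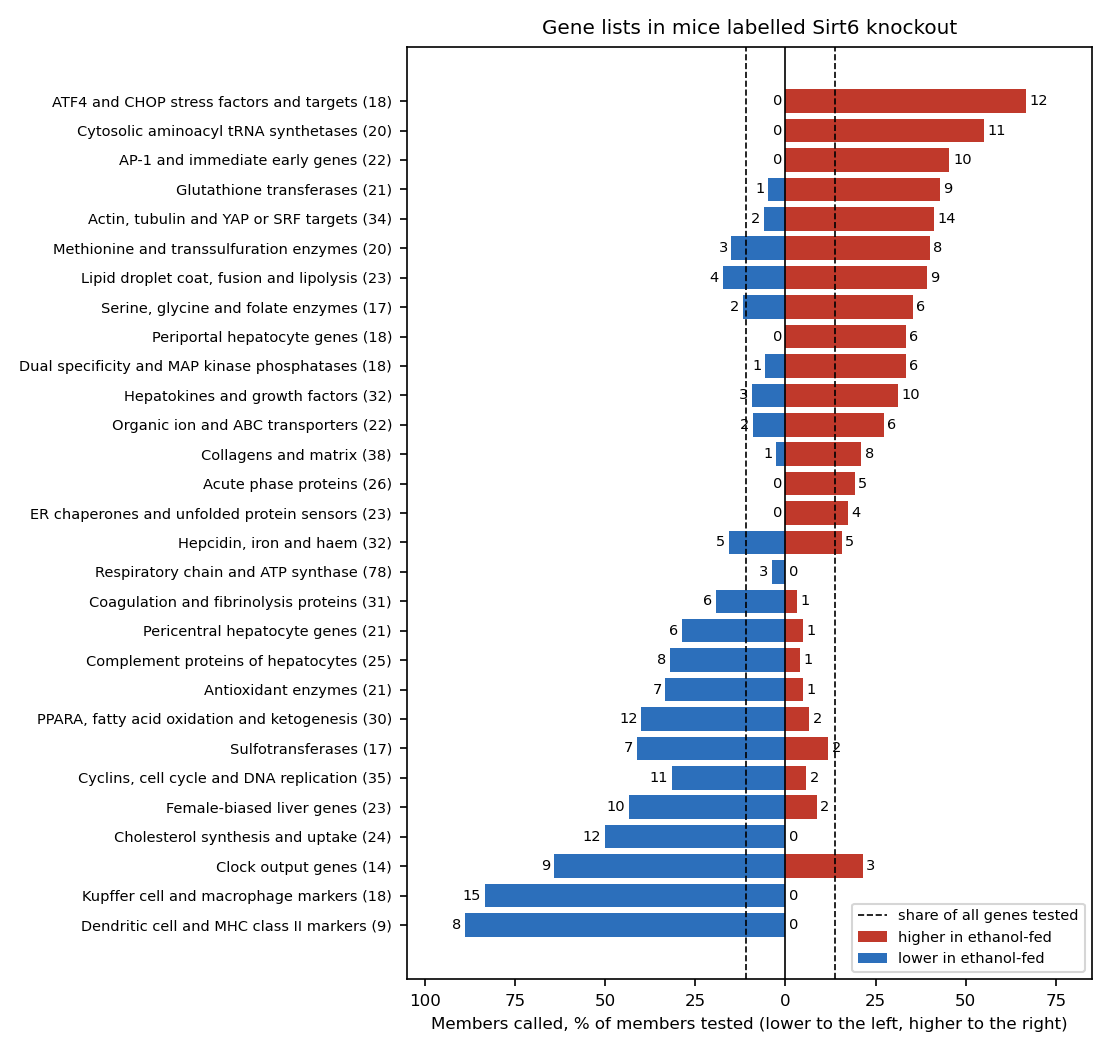
Share of the tested members called higher (right) or lower (left) in ethanol-fed mice labelled knockout, in percent, for 29 of the 70 gene lists. The 29 were chosen with results known. Lists with few calls were among those left out, such as 80 cytosolic ribosomal genes with 3 higher and 3 lower. The number called stands beside each bar and the number tested in parentheses. Dashed lines mark the 13.7% and 10.9% of all genes called in each direction. The bars run from 12 of 18 ATF4 and CHOP genes higher at the top to 8 of 9 dendritic cell and MHC class II markers lower at the bottom.

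ER chaperones split the ethanol-fed mice. Of 23 chaperones and sensors of unfolded proteins, only Hspa5, Atf6, Dnajb9 and Xbp1 were called, all higher, and the number called was 7 without ethanol-fed mouse 1, 7 without wild type ethanol-fed mouse 1 and 2 without pair-fed mouse 1 or 2. Ethanol-fed mice 2 and 3 held 22 and 20 of the 23 genes above the highest pair-fed value. Ethanol-fed mouse 1 held 6 above it and 14 below the lowest pair-fed value, where the shares of all genes were 40.6% above and 37.4% below. Hspa5, the main ER chaperone BiP, stood at 866, 2250 and 2457 CPM in ethanol-fed mice, against 520, 537 and 596 CPM in pair-fed mice (1.75 ± 0.35, adjusted p = 0.0046). The divergence was wider in 4 genes chosen after their values were seen. Creld2, an ER-resident disulphide exchanger, stood at 12.9, 177 and 151 CPM in ethanol-fed mice, against 28.7, 36.2 and 33.9 CPM in pair-fed mice (adjusted p = 0.27). Manf, Hyou1 and Pdia4, a secreted stress factor, an Hsp70-family chaperone and a disulphide isomerase, had the same pattern, with mouse 1 below and mice 2 and 3 above all pair-fed mice, and adjusted p values of 0.27, 0.28 and 0.37. The 18 ATF4 and CHOP genes did not split this way as a set, since each ethanol-fed mouse held 15 of them above the highest pair-fed value. Single genes differed. Trib3, a pseudokinase, was highest in mouse 1 (358, 83.6 and 148 CPM in ethanol-fed mice, against 7.09, 8.14 and 6.24 CPM in pair-fed mice). Fgf21, in contrast, was lowest in mouse 1 of the ethanol-fed mice.

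Other regulated liver genes also differed from mouse to mouse under ethanol. Among the 11961 genes whose mean reached 1 CPM, the highest of the 3 mice exceeded the lowest by over 2-fold on the log2(CPM + 0.5) scale in 965 genes in ethanol-fed mice and in 219 genes in pair-fed mice. Cyp7a1, the rate-limiting enzyme of bile acid synthesis, stood at 238, 16.6 and 14.8 CPM in ethanol-fed mice, against 264, 277 and 202 CPM in pair-fed mice, and was not called (-1.46 ± 0.89, adjusted p = 0.25). Pck1, the gluconeogenic kinase, stood at 872, 6063 and 4263 CPM, against 5049, 6558 and 4965 CPM (adjusted p = 0.56). Mouse 1 was thus the outlying ethanol-fed mouse in both genes, within the pair-fed range in Cyp7a1 and far below it in Pck1. Mouse 3 differed in acute phase proteins. It held 22 of the 26 acute phase genes above the highest pair-fed value, whereas mice 1 and 2 held 10 and 8, shares no larger than the 40.6% and 41.8% of all genes in those mice. Saa1 and Saa2, serum amyloids whose near-identical reads may be shared and which were chosen after their values were seen, stood at 581 and 382 CPM in mouse 3 and at most 7.05 CPM in ethanol-fed mice 1 and 2, and neither was called. Lcn2, the iron-sequestering lipocalin, stood at 57.3, 50.2 and 453 CPM in ethanol-fed mice, against 42.3, 23.1 and 11.5 CPM in pair-fed mice (2.86 ± 0.84, adjusted p = 0.031), and it lost its call in 5 of 21 recalculations. Of the 26 acute phase genes 5 were called higher and 0 lower, and their median was 0.33. Without ethanol-fed mouse 3 the calls were 3 higher and 2 lower and the median was -0.17, and the higher calls numbered 8 without ethanol-fed mouse 2, 2 without pair-fed mouse 2 and 3 without pair-fed mouse 3 or with only the 6 libraries.

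**Figure D3:**
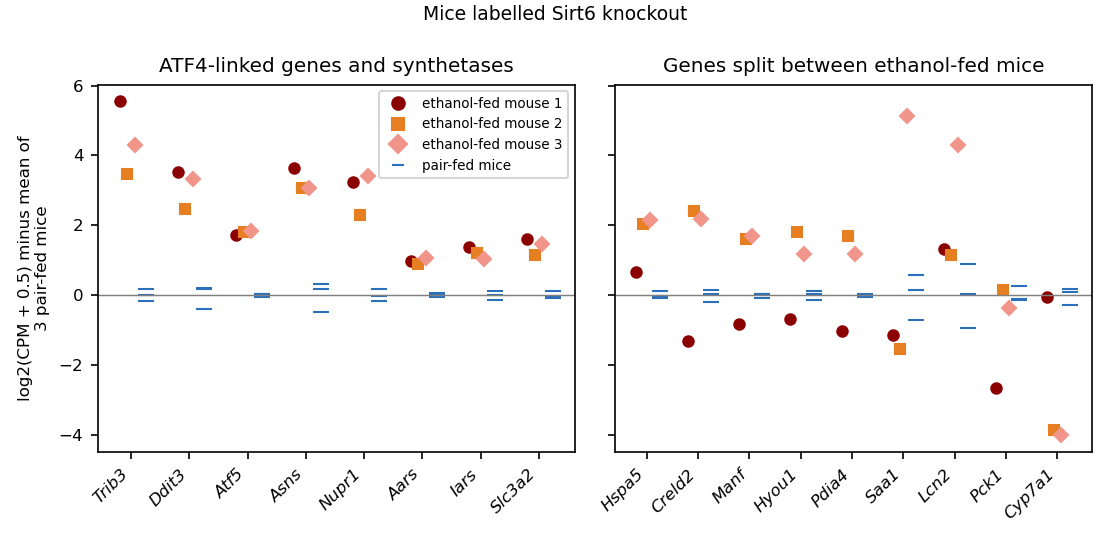
Level of 17 genes in each ethanol-fed mouse labelled knockout (circle, square and diamond) and each pair-fed mouse (dash, right of them), as log2(CPM + 0.5) minus the mean of the 3 pair-fed mice; the grey line is that mean. The left panel shows ATF4-linked genes in which all 3 ethanol-fed mice lie above the pair-fed mice, and the right panel shows genes that split them, such as Creld2 at 12.9 CPM in mouse 1 against 177 and 151 CPM in mice 2 and 3.

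Methionine metabolism was raised at several abundant enzymes. Of 20 genes of the methionine cycle and transsulfuration, 8 were called higher and 3 lower. Bhmt, which remethylates homocysteine with betaine, reached 634, 535 and 874 CPM in ethanol-fed mice, against 246, 103 and 153 CPM in pair-fed mice (2.02 ± 0.36, adjusted p = 0.0026). Gnmt, which consumes S-adenosylmethionine with glycine, reached 2166, 2039 and 2671 CPM, against 1377, 1115 and 969 CPM (0.99 ± 0.16). Nnmt, which methylates nicotinamide, reached 141, 211 and 431 CPM, against 62.8, 48.6 and 34.3 CPM (2.43 ± 0.46). No ethanol-fed mouse overlapped the pair-fed mice in these 3 genes, and 3074 of all 13097 genes likewise lay above the pair-fed range. The lower calls were Csad, a taurine synthesis enzyme, the methionine synthase Mtr and the phosphatidylethanolamine methyltransferase Pemt, at -1.76 ± 0.49, -1.31 ± 0.29 and -0.46 ± 0.13. The count of higher calls was 4 without ethanol-fed mouse 3, pair-fed mouse 2 or pair-fed mouse 3 and 5 without ethanol-fed mouse 2. In the urea cycle and ammonia list, 5 of 15 genes were called higher and 2 lower, with 3 to 7 higher over the recalculations. Ethanol-fed mouse 1 held 7 of the 15 above and 6 below the pair-fed range, mouse 2 held 10 and 5, and mouse 3 held 11 and 4. Among the higher calls was Asl, the argininosuccinate lyase, with 799, 1122 and 1313 CPM in ethanol-fed mice, against 468, 431 and 440 CPM in pair-fed mice. Glud1, glutamate dehydrogenase, fell to 930, 1097 and 1293 CPM, against 1737, 1842 and 1902 CPM (-0.72 ± 0.15).

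Detoxification families differed, and several moved in both directions. Of 38 Cyp2 and Cyp3 drug hydroxylases 9 were called higher and 7 lower, with 5 to 11 higher and 5 to 9 lower over the recalculations. Of 17 UDP glucuronosyltransferases 3 were called higher and 4 lower, with 1 to 3 higher and 1 to 5 lower over the recalculations. Of 21 glutathione transferases, which conjugate electrophiles to glutathione, 9 were called higher and 1, Gstt2, lower (lost in 6 of 21 recalculations), with 8 to 10 higher over the recalculations. Gstm1 reached 2744, 3367 and 4652 CPM in ethanol-fed mice, against 788, 813 and 750 CPM in pair-fed mice (2.20 ± 0.19, adjusted p = 3.7e-05). Gstm3 reached 435, 469 and 657 CPM, against 59.8, 35.4 and 39.8 CPM (3.53 ± 0.30, adjusted p = 4.3e-05). Reads may be shared among Gstm copies, so single members of that family are uncertain. Enzymes that remove peroxides and superoxide went the other way, with 1 of 21 called higher and 7 lower. Cat, the peroxisomal catalase, fell to 1259, 1348 and 1640 CPM in ethanol-fed mice, against 2792, 2586 and 2416 CPM in pair-fed mice (-0.88 ± 0.17, adjusted p = 0.0033). The peroxiredoxin Prdx6 and the mitochondrial thioredoxin reductase Txnrd2 fell by 0.60 ± 0.13 and 0.65 ± 0.14 on the log2 scale. The exception was Gpx3, a secreted glutathione peroxidase, which rose by 1.09 ± 0.25. The lower calls of this list numbered 4 without pair-fed mouse 1, 2 or 3 and without ethanol-fed mouse 1 or 2.

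Of 17 sulfotransferases and related enzymes, 7 were called lower and 2 higher, with a median of -0.70. Sult2a8, a hepatic bile acid sulfotransferase in mice, fell to 88.9, 42.9 and 56.3 CPM in ethanol-fed mice, against 380, 413 and 387 CPM in pair-fed mice (-2.65 ± 0.26, adjusted p = 7.3e-05). Sult1e1, which inactivates oestrogens, went up to 38.0, 24.9 and 25.3 CPM, against 3.43, 0.337 and 2.77 CPM (3.76 ± 0.60, adjusted p = 0.0014). Neither gene overlapped between the groups, where 3074 of all 13097 genes lay above and 2675 below the pair-fed range. Sult1a1, a phenol sulfotransferase, was the other higher call, and the number of lower calls was 3 or 4 without pair-fed mouse 1, 2 or 3, without ethanol-fed mouse 1 or 2, and with only the 6 libraries. Of 22 organic ion and ABC transporters, 6 were called higher and 2 lower. Slc22a3, an organic cation transporter, reached 13.8, 10.2 and 11.9 CPM in ethanol-fed mice, against 1.40, 1.24 and 1.44 CPM in pair-fed mice (3.13 ± 0.20, adjusted p = 2.9e-06), with little spread in either group. In the retinol list 5 of 21 were called higher and 4 lower, with a median of 0.03 that turned negative in 9 of 21 recalculations. The lower calls numbered 1 or 2 on total counts, without ethanol-fed mouse 2, without pair-fed mouse 1, 2 or 3, or without wild type pair-fed mouse 2, and the higher calls numbered 3 without pair-fed mouse 2. Cyp26b1, which degrades retinoic acid, reached 141, 170 and 123 CPM, against 13.5, 22.4 and 22.7 CPM (2.89 ± 0.30), and the retinol transporter Stra6l reached 415, 355 and 394 CPM, against 103, 72.6 and 84.9 CPM (2.16 ± 0.26).

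In the iron and haem list 5 of 32 genes were called in each direction, near the shares of all genes, with a median of -0.14. Alas1, the rate-limiting enzyme of hepatic haem synthesis, stood at 254, 413 and 263 CPM in ethanol-fed mice, against 1548, 1183 and 910 CPM in pair-fed mice (-1.97 ± 0.37, adjusted p = 0.0034). Alad, the next enzyme, stood at 106, 85.1 and 130 CPM, against 281, 250 and 239 CPM (-1.27 ± 0.19, adjusted p = 0.00078). Both were lower in all 3 ethanol-fed mice than in any pair-fed mouse, as were 2675 of all 13097 genes. Hmox1, which degrades haem, reached 169, 316 and 288 CPM, against 20.6, 28.2 and 27.1 CPM. Hfe2, the hemojuvelin co-receptor that raises hepcidin, reached 150, 121 and 177 CPM, against 64.6, 56.1 and 50.1 CPM (1.39 ± 0.18). The higher calls of the list numbered 3 without ethanol-fed mouse 1 or 3 or pair-fed mouse 1, 2 or 3, and the lower calls 8 with DESeq2.

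Of 23 genes of lipid droplets and lipolysis, 9 were called higher and 4 lower. Plin2, the main droplet coat protein of hepatocytes, reached 1161, 1380 and 2110 CPM in ethanol-fed mice, against 372, 300 and 288 CPM in pair-fed mice (2.28 ± 0.36, adjusted p = 0.0013). Lpin1, a phosphatidate phosphatase chosen after its values were seen, fell to 87.2, 238 and 58.1 CPM, against 717, 688 and 813 CPM (-2.53 ± 0.71, adjusted p = 0.024). The lower calls of this list numbered 0 without ethanol-fed mouse 1 or pair-fed mouse 3, 1 without ethanol-fed mouse 3 or pair-fed mouse 1 or 2 and 2 on total counts, and the higher calls numbered 5 without pair-fed mouse 2. Apoa4, an apolipoprotein of triglyceride-rich particles, reached 2758, 1593 and 2053 CPM in ethanol-fed mice, against 335, 224 and 416 CPM in pair-fed mice (2.72 ± 0.47). Insig2, which retains sterol sensors in the ER, reached 483, 428 and 682 CPM, against 66.4, 68.3 and 82.7 CPM (2.87 ± 0.29). Ppara, the nuclear receptor of fatty acid oxidation, fell to 228, 302 and 187 CPM, against 681, 647 and 618 CPM (-1.44 ± 0.20). Of 24 genes of cholesterol synthesis and uptake 12 were called lower and 0 higher, and of 30 PPARA and fatty acid oxidation genes 12 were called lower and 2 higher. The lower calls numbered 7 in the cholesterol list on total counts and without ethanol-fed mouse 1 or pair-fed mouse 2 or 3, and 7 in the PPARA list without ethanol-fed mouse 1 or pair-fed mouse 1. Of 33 phospholipid and sphingolipid enzymes 3 were called higher and 7 lower, with a median of -0.06 and 1 to 4 lower without ethanol-fed mouse 1 or 2, without pair-fed mouse 1, 2 or 3, or on total counts. Smpd3, a neutral sphingomyelinase, rose by 3.45 ± 0.52, and Pcyt2, the rate-limiting enzyme of phosphatidylethanolamine synthesis, fell by 0.97 ± 0.14 on the log2 scale.

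Structural genes were often called higher. Of 34 genes of actin, tubulin and the YAP and SRF programmes, 14 were called higher and 2 lower, with 13 to 20 higher over the recalculations and a median of 0.56. Krt8, a keratin of hepatocytes and bile duct cells, reached 161, 265 and 273 CPM in ethanol-fed mice, against 69.1, 71.2 and 66.2 CPM in pair-fed mice (1.76 ± 0.24, adjusted p = 0.00052). Tuba1c, an alpha tubulin, reached 38.8, 26.8 and 55.8 CPM, against 12.6, 7.92 and 8.43 CPM (2.07 ± 0.29). Actg1 rose by 2.82 ± 0.39, but its level of 1.40 to 18.4 CPM is uncertain, since actin genes share reads with near-identical copies. The lower calls were Amotl2, a YAP-binding angiomotin, and Myl9, a myosin light chain, which lost its call in 11 of 21 recalculations. Of 38 collagen and matrix genes, 8 were called higher and 1, Col27a1, lower. Col4a1, a basement membrane collagen, reached 75, 86.8 and 52.4 CPM, against 21.5, 37.3 and 34.9 CPM (1.19 ± 0.23), and Tgfbr2, the TGF-beta receptor, reached 74.5, 44.8 and 41.5 CPM, against 19.4, 18.4 and 20.6 CPM (1.46 ± 0.21). Without ethanol-fed mouse 3 the higher calls of this list numbered 15.

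The list of dual specificity and MAP kinase phosphatases, some of them feedback brakes of stress and growth kinases, had 6 of 18 members called higher. It had 1, Dusp28, called lower, a call lost in 9 of 21 recalculations. Dusp4 reached 9.85, 11.8 and 12.2 CPM in ethanol-fed mice, against 0.988, 1.35 and 1.27 CPM in pair-fed mice (3.22 ± 0.34, adjusted p = 0.00013). Dusp8 reached 19.1, 44.5 and 52.0 CPM, against 0.872, 1.91 and 1.96 CPM. Its promoter is shown because it holds the cyclic AMP element TGACGTCA at 2 places, beginning 107 and 63 bases before the start (GRCm38.p6, chr7:142095235-142095534, minus strand, matches in capitals).
Dusp8: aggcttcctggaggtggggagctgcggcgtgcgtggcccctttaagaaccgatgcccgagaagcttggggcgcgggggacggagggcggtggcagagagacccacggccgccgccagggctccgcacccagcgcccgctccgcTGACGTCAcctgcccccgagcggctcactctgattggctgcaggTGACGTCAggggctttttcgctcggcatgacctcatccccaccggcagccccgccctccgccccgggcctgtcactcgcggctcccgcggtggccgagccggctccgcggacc
This element was present in 13.3% (2 genes) of the 15 phosphatase genes with a window, in 3.50% of tested genes and in 1.79% of all windows. It reads the same on both strands and contains no other motif searched.

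Among AP-1 and immediate early genes, 10 of 22 were called higher and 0 lower. Jund, an AP-1 subunit, reached 298, 383 and 463 CPM in ethanol-fed mice, against 66.3, 100 and 94.6 CPM in pair-fed mice (2.13 ± 0.27, adjusted p = 0.00039). The count was 4, 6 and 5 without pair-fed mouse 1, pair-fed mouse 2 and ethanol-fed mouse 2. Sqstm1, the autophagy receptor p62, reached 2118, 1699 and 2058 CPM, against 322, 332 and 351 CPM (2.55 ± 0.31), and the lysosomal protease Ctsl reached 2718, 1327 and 2245 CPM, against 419, 441 and 419 CPM (2.30 ± 0.40). Both were among the most abundant genes that rose, while the rest of the 40 lysosome and autophagy genes held 4 further calls higher and 3 lower. Over the recalculations the higher calls of the whole list numbered 2 (without pair-fed mouse 3) to 8 and the lower calls 1 (without pair-fed mouse 2) to 7 (with DESeq2), and its median of 0.02 turned negative in 4.

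Secreted signals changed on both sides of the activin system. Of 32 hepatokines and growth factors, 10 were called higher and 3 lower. Inhbb, an activin subunit, reached 23.3, 25.4 and 20.1 CPM in ethanol-fed mice, against 3.31, 3.93 and 3.64 CPM in pair-fed mice (2.66 ± 0.25, adjusted p = 5.5e-05). Inhbc, another subunit made by hepatocytes, fell to 44.9, 48.7 and 55.0 CPM, against 123, 184 and 192 CPM (-1.75 ± 0.19, adjusted p = 0.00016). Fst, which binds activins, reached 8.83, 10.9 and 15.1 CPM, against 0.233, 0.449 and 0.635 CPM. The groups did not overlap in any of the 3, where 3074 of all 13097 genes lay above and 2675 below the pair-fed range. The other lower calls were Inhba and Igf2, at -1.10 ± 0.36 and -1.75 ± 0.52. They lost their calls in 8 and 6 of 21 recalculations, and the Igf2 groups overlapped (31.2, 23.4 and 15.8 CPM in ethanol-fed mice, against 48.2, 162 and 26.4 CPM in pair-fed mice). In the growth hormone and IGF1 axis, 5 of 20 were called lower and 2 higher. Igfbp1, an IGF-binding protein, reached 1419, 2185 and 1989 CPM, against 114, 290 and 279 CPM (3.03 ± 0.45), and Ghr, the growth hormone receptor, fell to 419, 325 and 355 CPM, against 728, 632 and 680 CPM (-0.89 ± 0.12).

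Among plasma proteins of hepatocytes, 8 of 25 complement genes and 6 of 31 coagulation genes were called lower, and 1 of each was called higher, which was C4a among the complement genes. C8a, a subunit of the membrane attack complex, fell to 121, 59.3 and 132 CPM in ethanol-fed mice, against 197, 303 and 230 CPM in pair-fed mice (-1.22 ± 0.28), and plasma prekallikrein Klkb1 fell to 152, 111 and 102 CPM, against 240, 224 and 227 CPM (-0.92 ± 0.15). The lower complement calls numbered 3 to 5 without pair-fed mouse 1, 2 or 3, without ethanol-fed mouse 1 or 2, or with replicate number as a block. Of 23 female-biased genes, 10 were called lower and 2 higher in these female mice, and the lower calls numbered 5 or 6 without pair-fed mouse 1 or 3 or ethanol-fed mouse 3. Cyp2c40 stood at 43.0, 36.8 and 46.7 CPM, against 76.9, 79.1 and 92.2 CPM (-0.97 ± 0.14), with reads that Cyp2c copies may share. Major urinary proteins and male-biased genes, low in female liver, had 8 of 20 lower and 0 higher. Mup3 fell to 156, 204 and 301 CPM, against 648, 736 and 669 CPM (-1.63 ± 0.26), and reads of Mup genes may likewise be shared.

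Of 18 periportal genes 6 were called higher and 0 lower, and of 21 pericentral genes 1 was called higher and 6 lower, and the difference between the zones was not tested. Summed levels were lower in ethanol-fed mice in both lists. The periportal sums, most of which is Alb, were 66200, 104200 and 122500 CPM in ethanol-fed and 128700 to 145000 CPM in pair-fed mice. The pericentral sums were 9837 to 11520 CPM in ethanol-fed and 18420 to 20630 CPM in pair-fed mice. Ethanol-fed mouse 1 held 9 of the 18 periportal genes above and 8 below the pair-fed range. Cyp17a1, a steroid hydroxylase, reached 325, 463 and 524 CPM in ethanol-fed mice, against 102, 21.7 and 51.2 CPM in pair-fed mice (2.91 ± 0.61). The pericentral Gulo, the last enzyme of vitamin C synthesis, fell to 354, 241 and 318 CPM, against 744, 651 and 677 CPM (-1.18 ± 0.15). The exception was Rhbg, a pericentral ammonium transporter, which reached 64.6, 43.5 and 46.3 CPM, against 16.4, 14.0 and 16.9 CPM (1.71 ± 0.23). Of 14 clock output genes 9 were called lower and 3 higher, and of 35 cell cycle genes 11 were called lower and 2 higher, with 3 to 7 lower without ethanol-fed mouse 1 or 3 or pair-fed mouse 2 or 3. Tk1, a thymidine kinase of replicating cells, fell by 1.89 ± 0.18 on the log2 scale. The periportal count was 3 without pair-fed mouse 1 or 3. Respiratory chain genes showed few calls, with 0 of 78 higher and 3 lower (Ndufb11, Atp5sl and Cox6b2) and a median of -0.25, but the lower calls numbered 39 without ethanol-fed mouse 3 and 2 to 9 in the other recalculations.

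Markers of other cells of the liver moved with the feeding groups. Of 18 Kupffer cell and macrophage markers 15 were called lower and 0 higher, with a median of -1.21, and their summed level was 378 to 505 CPM in ethanol-fed mice and 814 to 1014 CPM in pair-fed mice. Clec4f, a lectin restricted to Kupffer cells, stood at 79.6, 58.9 and 55.7 CPM in ethanol-fed mice, against 112, 145 and 130 CPM in pair-fed mice (-1.0 ± 0.26, adjusted p = 0.016). Marco and Cd163 were among the 3 that were not called. Fewer cells of a type and less RNA per cell cannot be told apart in bulk tissue. Of 9 dendritic cell and MHC class II markers 8 were called lower, and their sums were 72.7 to 119 CPM in ethanol-fed mice and 194 to 201 CPM in pair-fed mice. H2-Aa stood at 16.5, 10.8 and 12.5 CPM, against 29.7, 29.2 and 32.5 CPM (-1.20 ± 0.22), and the invariant chain Cd74 fell by 1.13 ± 0.21 on the log2 scale. Of 18 T, NK and B cell markers 5 were called lower, with sums of 13 to 19.4 CPM and 33.3 to 37.1 CPM in ethanol-fed and pair-fed mice. The Kupffer count was 8 without ethanol-fed mouse 3, and the T, NK and B cell count was 3 without pair-fed mouse 1 and 2 when genes had to reach 1 CPM in 6 libraries.

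Of 8 monocyte and neutrophil markers 2 were called lower and 1, Lcn2, higher, with a median of -0.42 that was negative in all 21 recalculations. Their summed level, to which Lcn2 contributed most in ethanol-fed mouse 3, was 73.2, 62.8 and 467 CPM in ethanol-fed mice and 35.1 to 60.6 CPM in pair-fed mice. Of 24 sinusoidal endothelial markers 7 were called higher and 0 lower, with summed levels that overlapped (978 to 1170 CPM in ethanol-fed and 881 to 1231 CPM in pair-fed mice). Lyve1, a hyaluronan receptor, reached 56.4, 41.7 and 29.3 CPM in ethanol-fed mice, against 5.12, 9.04 and 9.99 CPM in pair-fed mice (2.40 ± 0.32, adjusted p = 0.00053). The higher endothelial calls numbered 4 without ethanol-fed mouse 2 and 2 without pair-fed mouse 1 or 2, and 1 to 5 lower calls appeared in 7 recalculations. Of 12 cholangiocyte markers 4 were called higher, among them Krt23, Prom1 and Sox9, and 0 lower, with sums of 108 to 175 CPM and 72.9 to 104 CPM. Krt23, also stress-induced in hepatocytes, stood at 31.0, 4.60 and 6.61 CPM in ethanol-fed mice. Stellate cell markers had 4 of 20 higher and 3 lower, with overlapping sums. Of 12 hepatocyte markers 1, Cps1, was called, higher, and their sums were 97640, 140200 and 170200 CPM in ethanol-fed mice and 172600 to 193700 CPM in pair-fed mice. Cps1 lost its call in 5 of 21 recalculations. The lower calls of that list numbered 0 to 3 over the recalculations, and its median of -0.04 changed sign in 3. Sums of erythroid and platelet markers overlapped between the groups, and the haemoglobin genes are not in the table. The part of these shifts in the changes of single genes was not tested.

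**Figure D4:**
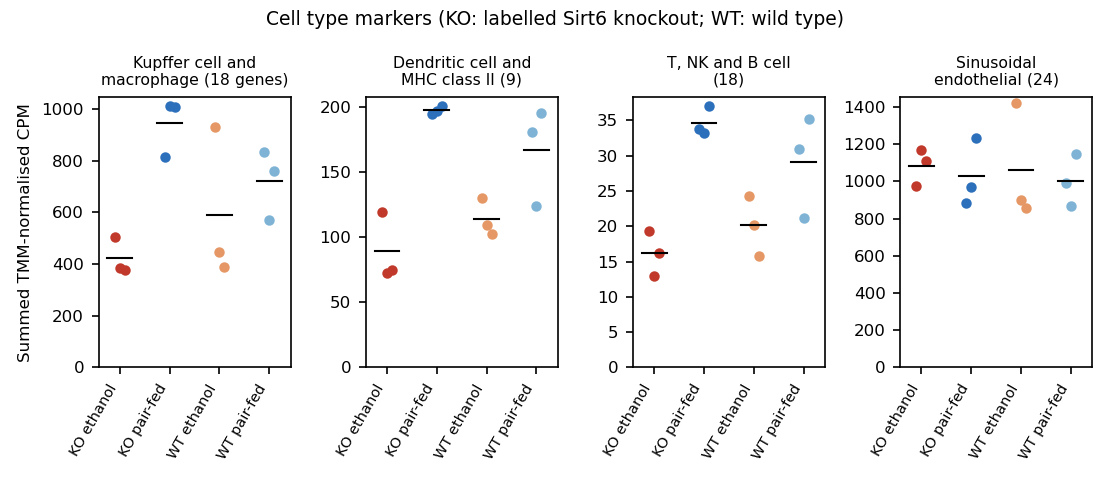
Summed TMM-normalised CPM of 4 sets of cell type markers in each of the 12 mice, with bars at the mean of 3 mice; KO stands for labelled Sirt6 knockout and WT for wild type. The Kupffer sums of ethanol-fed mice labelled knockout (378 to 505 CPM) lie below all of their pair-fed mice (814 to 1014 CPM). In wild type mice the ethanol-fed values overlap the pair-fed values (569 to 835 CPM) through mouse 1 alone. That mouse is at 930 CPM, and ethanol-fed mice 2 and 3 are at 446 and 390 CPM, below all wild type pair-fed mice.

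The response was then set beside that of wild type mice, which shares no library with it. Both came from 1 fit that pooled the spread of all 12 libraries, so the calls in the 2 genotypes are not independent. For example, 3724 genes were called in mice labelled knockout without wild type ethanol-fed mouse 1. In wild type mice 4380 genes were called, 18.9% of all genes higher and 14.5% lower. When each genotype was fitted with only its own 6 libraries, 3321 genes were called in mice labelled knockout and 3470 in wild type mice. The difference in number of calls thus depends on the fit. Of the 3222 genes called in mice labelled knockout, 2417 were also called in wild type mice, which is 75% of the labelled knockout calls and 55.2% of the wild type calls, and 2413 of them had the same direction. Over all genes the log2 fold changes of both genotypes correlated with a Pearson r of 0.82 and a Spearman rho of 0.80, given as a description since genes are not independent. The difference of the responses was called for 1 gene, 0.00764% of those tested, against 696 at an unadjusted p under 0.05. That gene was Cyp2b10, the P450 induced through the constitutive androstane receptor. It stood at 1226, 924 and 968 CPM in ethanol-fed and 79.5, 53.4 and 60.5 CPM in pair-fed mice labelled knockout, and at 1134, 1255 and 1473 CPM in ethanol-fed and 8.55, 8.18 and 7.60 CPM in pair-fed wild type mice. The interaction was -3.30 ± 0.25 on the log2 scale (adjusted p = 7.4e-05), and the groups differed mainly at the pair-fed level. DESeq2 called 15 genes for the interaction, and 20 were called without wild type ethanol-fed mouse 1.

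For all other genes a difference in the ethanol response between the genotypes was not shown. The 805 genes called in mice labelled knockout and not in wild type mice held 0 interaction calls. Of the 4 genes called in opposite directions, Itga10 and Bcl6 were higher after ethanol in labelled knockout and lower in wild type mice, and Csf2ra was the reverse, with interaction adjusted p values of 0.46 to 0.66 in these 3 genes. Their calls in mice labelled knockout were lost in 5 (Itga10), 10 (Bcl6) and 3 (Csf2ra) of 21 recalculations. Itga10, a collagen-binding integrin, had log2 fold changes of 1.30 ± 0.37 in mice labelled knockout and -1.46 in wild type mice. Scd1, the stearoyl-CoA desaturase, had 1.03 ± 0.28 in mice labelled knockout and -0.71 in wild type mice (interaction adjusted p = 0.59). The ATF4 and CHOP list had 12 and 14 of 18 called higher in mice labelled knockout and wild type mice, and the cytosolic synthetases 11 of 20 in each. ER chaperones split the wild type ethanol-fed mice too. Their summed level was 11680, 5459 and 5465 CPM in wild type ethanol-fed mice, against 4841 to 5606 CPM in wild type pair-fed mice. Creld2 stood at 223, 21.3 and 7.85 CPM in wild type ethanol-fed mice, against 21.4, 30.4 and 26.9 CPM in wild type pair-fed mice. The Kupffer list had 15 of 18 called lower in mice labelled knockout and 1 in wild type mice, whose median was -0.22, but 0 of the 18 had an interaction call. Summed Kupffer levels in wild type ethanol-fed mice were 930, 446 and 390 CPM, so mice 2 and 3 also stood below all wild type pair-fed mice. The interferon list had 1 of 35 higher and 6 lower in mice labelled knockout and 11 higher and 5 lower in wild type mice, again with 0 interaction calls.

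**Figure D5:**
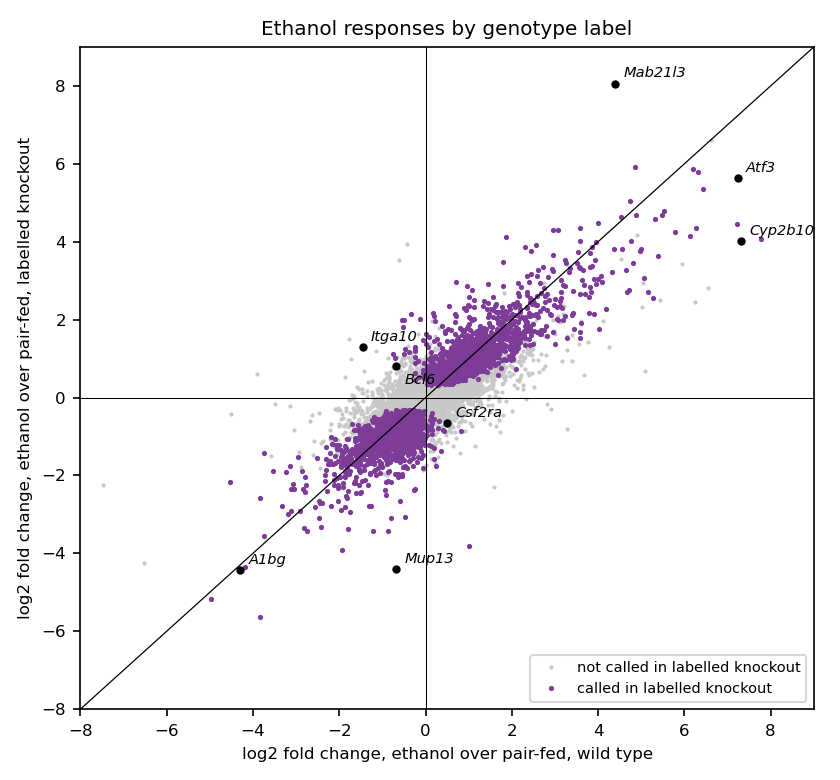
Log2 fold change of ethanol-fed over pair-fed mice labelled knockout (vertical) and wild type (horizontal) for 13097 genes, with the diagonal of equal response; purple points were called in mice labelled knockout and black points are named. Cyp2b10 lies below the diagonal at 4.01 in labelled knockout and 7.31 in wild type mice, and the fitted value of Mab21l3 depends on the prior count, since its pair-fed libraries of this label are at 0.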

How the data were processed

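Liver RNA of 12 individual mice (3 per group) was extracted with Trizol and made into libraries with a TruSeq RNA kit, per the labels' protocols. Whole-number read counts per gene were deposited by the authors, and the tools listed in the submitters' processing notes are STAR 2.5, Subread 1.5.3 with its featureCounts program, and edgeR 3.20.8, on build mm10. No annotation, strand setting or gene filter is given in the sources used here. Overlapping genes, antisense pairs and near-identical copies may therefore share reads. The deposited log2 CPM values, log2 fold changes and p-values of the authors' genotype comparisons were not used.

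Counts of all 13097 genes were scaled by TMM and fitted with edgeR 4.0.16 (quasi-likelihood, robust, 12 libraries, 1 coefficient per group). P-values (both sides) were adjusted by Benjamini-Hochberg over all genes, and called at 0.05, with standard errors taken as the log2 fold change over the root of F. Alternatives used limma 3.58.1, DESeq2 1.42.0, other scalings and filters, replicate number as a block and each library left out. Replicates differed by more than counting noise, with a chi-square per degree of freedom of 12.9 to 114, and none was counted as a duplicate. Total counts were 17305141 to 18279809 per library. Counting intervals (exact, 95%) and the floor of 3 reads over a group cover counting error only, because reads without molecular identifiers are not independent molecules.

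Named genes were the 15 largest rises and 15 largest falls with groups that did not overlap and a mean of at least 1 CPM, up to 3 members of each of 70 lists with the smallest p, interaction calls and a few genes named in advance. List members named for a small p tend to have groups that do not overlap, so such gaps are not separate results. Members of lists outside that rule, including those filling small counts, were chosen after their values were seen. The comparison, the lists and the tests were chosen with earlier results of these data known. No list was given a test of its own. Each list is described by its counts and median. A few genes are not reported here.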

Additional observations from a re-analysis of the deposited data

Results flagged for a closer look

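Cyp2b10 was singled out because its ethanol response differed between the genotypes by the test of the difference itself. Its log2 fold change of ethanol-fed over pair-fed mice was 4.01 ± 0.19 in mice labelled knockout and 7.31 ± 0.22 in wild type mice, a difference of -3.30 ± 0.25 (edgeR quasi-likelihood test, adjusted p = 7.4e-05). All 3 ethanol-fed mice were above all 3 pair-fed mice in both genotypes. Pair-fed mice labelled knockout stood at 53.4 to 79.5 CPM and pair-fed wild type mice at 7.60 to 8.55 CPM, so the difference lay mainly between the pair-fed groups. Sirt6 itself showed no called difference between the genotype labels (log2 difference -0.11 ± 0.15, adjusted p = 0.77), and the part of the label in this difference was not tested.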

How the results depend on the processing

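The number of genes called in mice labelled knockout ranged from 1853 to 3867 when 1 library was left out, with 2133, 1853 and 2089 without pair-fed mouse 1, 2 and 3 of that label. Fewer samples entered those fits. The interaction was called for 15 genes with DESeq2 and for 1 to 20 genes with 1 library left out, and the cause was not tested. Among 290 named genes, 269 were called, and 210 of these kept their call in all 21 alternatives, whereas 59 lost it in at least 1 and 0 changed direction. Most were named for the size or the p of their change, so these counts do not describe all genes. Of all 13097 genes, 3222 were called. The uncalled genes Saa1, Saa2 and Cela1 changed sign with 1 library left out. Saa1 ranged from -1.49 to 4.10 and Saa2 from -1.94 to 4.53, negative without ethanol-fed mouse 3, and Cela1 ranged from -0.487 to 0.0461, positive without pair-fed mouse 1. With replicate number as a block, 2915 genes were called in mice labelled knockout, 3949 in wild type mice and 1 for the interaction. The numbers did not pair the mice, since same-numbered libraries correlated at -0.21 to 0.16 in their deviations from group means. All genes in the table passed without a filter, so that alternative gave the same 3222 calls. Depth limits the genes near 0 reads in pair-fed mice, whose ratios have wide intervals.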
